A study of Mus musculus with 43 samples.

Results

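Accessible chromatin was compared between irradiated mouse intestinal organoids treated with TGFB1 and the same kind of organoids treated with vehicle, using 6 ATAC-seq libraries out of the 43 samples of the series. All 6 came from primary organoids of wild-type C57BL/6 mice that were given 4 Gy on day 4. On day 6 the 3 TGFB1 libraries were exposed for 24 h to TGFB1 at 2 ng/mL and the 3 vehicle libraries to vehicle, and all were collected on day 7 (D7). Irradiation and the culture itself were thus shared by both groups. The peaks of the 6 libraries on chromosomes 1 to 19 were merged into 36785 regions. A region was called gained when all 3 TGFB1 libraries and no vehicle library had a peak in it, and lost in the reverse case. By this rule 454 regions were gained, which is 1.23% of the regions, and 741 were lost, which is 2.01%. The rule fixes those shares, so they describe the comparison and test nothing. The other libraries used below were 6 of non-irradiated D7 organoids and 6 of irradiated organoids collected on day 11 (D11), again 3 with vehicle and 3 with the same TGFB1 treatment in each, and 6 bulk RNA-seq libraries of the irradiated D7 groups. The labels do not say that the ATAC-seq and RNA-seq libraries came from the same cultures, nor that replicates came from different animals, so the spread between libraries may be technical.

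TGFB1 is a secreted growth factor that binds a pair of kinase receptors. The activated receptors phosphorylate SMAD2 and SMAD3, which join SMAD4, enter the nucleus and bind DNA beside other transcription factors that are already active in the cell. In the intestine TGFB1 is known for restraining epithelial growth, and it is also studied as a signal in tissue repair after injury. ATAC-seq marks open chromatin, because a transposase inserts its adapters where DNA is free of nucleosomes. Open regions include promoters and enhancers, the sites where SMAD proteins and their partner factors act.

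Most regions were not split by treatment. Peaks were present in all 6 libraries in 11950 regions (32.5%), and 23640 regions (64.3%) had a mixed pattern with neither group complete against an empty other group. Regions with a peak in 1 library only numbered 9791 (26.6%) and are part of the mixed ones. Among regions without any vehicle peak, 4757 had a peak in 1 TGFB1 library, 1154 in 2 and 454 in 3. Among regions without any TGFB1 peak, 5034 had a peak in 1 vehicle library, 1572 in 2 and 741 in 3. Just outside the rule lay 645 regions in all 3 TGFB1 libraries and 1 vehicle library, and 1224 regions in all 3 vehicle libraries and 1 TGFB1 library.

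**Figure D1:**
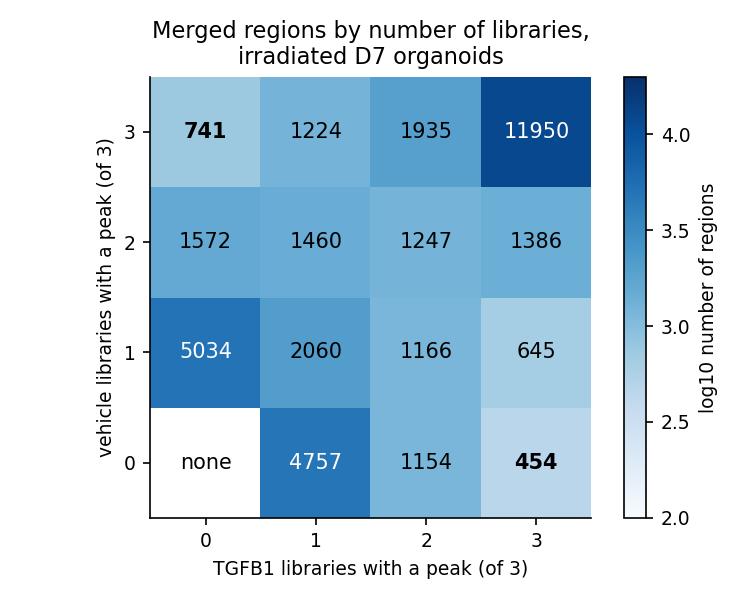
Number of merged regions by the number of TGFB1 libraries (horizontal axis, of 3) and of vehicle libraries (vertical axis, of 3) that have a peak in them, with colour on a log10 scale. The lower right cell holds the 454 gained regions, the upper left cell the 741 lost regions, and the upper right cell the 11950 regions present in all 6.

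The lists differed in length within the TGFB1 group. The vehicle lists held 22567, 24194 and 25683 peaks on chromosomes 1 to 19 and the TGFB1 lists 27368, 19907 and 20522. TGFB1 replicate 1 was the longest of the 6 and the other TGFB1 lists were the shortest, so the groups overlapped. The means were 24148 ± 1559 (vehicle) and 22599 ± 4142 (TGFB1) peaks (SD, n = 3 each), a difference of −1549 with an exact permutation p of 0.6 (two-sided, smallest possible value 0.1). TGFB1 replicate 1 alone held 3267 regions found in no other library, 12.6% of its regions. The order of the 2 counts depended on list length. When each list was cut to its 19907 highest peaks, 566 regions were gained and 546 lost. Of the 454 gained regions 288 (63.4%) overlapped a gained region of the equal lists, and of the 741 lost regions 351 (47.4%) overlapped a lost one. Both kinds of region were thus found at equal length, without the excess of losses.

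The overlap of whole lists was a little greater within the groups than between them. Of the merged regions with a peak in either of 2 libraries, 64.2 to 65.2% had one in both among the vehicle libraries. Among the TGFB1 libraries this share was 60.4 to 65.1%. Between a vehicle and a TGFB1 library it was 57.6 to 59.1% in the 9 pairs.

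Gained and lost regions ranked in the lower part of the lists that had them. Their pooled median scores were a little above those of other regions held by as few libraries. The deposited score of a peak is −log10 of its q-value, so a higher score is a more certain peak. Percentiles are ranks of a score within its own list, while scores are given as deposited. The lost regions had median scores of 5.21, 5.86 and 5.76 in the 3 vehicle lists, at percentiles 32.4, 32.4 and 34.5 of those lists. The gained regions had median scores of 5.63, 5.41 and 5.15 in the 3 TGFB1 lists, at percentiles 37.9, 27.2 and 27.1. Regions present in all 6 libraries lay higher in each list, with medians at percentiles 68.9 to 77.2. Over their peaks in all libraries, the gained and lost regions had median scores of 5.41 and 5.56. The other regions held by 3 libraries had 4.82 (1 vehicle and 2 TGFB1 libraries) and 4.88 (2 and 1), and the regions in all 6 had 11.9. These pooled scores were not ranked within the lists, whose median scores ran from 6.75 to 8.30.

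The distance to the calling threshold was also small for part of the regions. The lowest of a region's 3 scores had a median of 3.91 in gained regions and 4.00 in lost regions, against 7.33 for the lowest of 6 in regions present in all libraries. It was under 2 in 14 gained (3.08%) and 17 lost regions (2.29%). It reached 5 in 118 gained (26.0%) and 194 lost regions (26.2%), against 73.1% of the regions present in all 6. Only 15 gained (3.30%) and 35 lost regions (4.72%) were in the upper part (percentile 50 or more) of all 3 lists. Since the lists hold no read counts, a region without a peak may have had signal just under the threshold, and the size of a change in accessibility cannot be given.

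**Figure D2:**
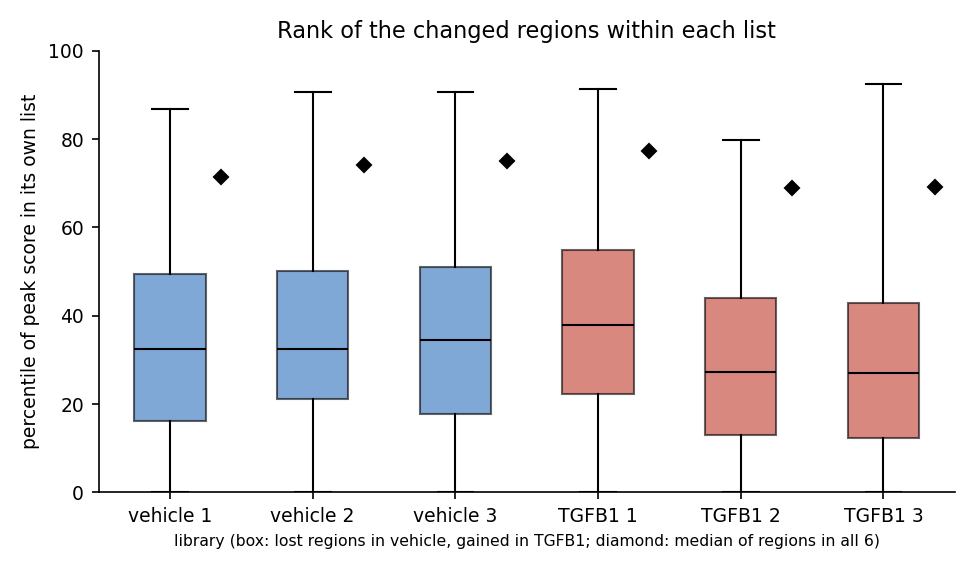
Percentile of the peak score within its own list for the lost regions in the 3 vehicle libraries (blue) and the gained regions in the 3 TGFB1 libraries (red). Boxes give the quartiles and the median, whiskers the full range, and diamonds the median of regions present in all 6 libraries, which lies between percentiles 68.9 and 77.2.

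The regions are named here by coordinates that were read as the mouse build mm9, for reasons given with the processing. No genes were assigned to them, since no mm9 annotation was used here. Regions were ranked by the lowest of their 3 within-list percentiles. The strongest gained region by this rank was chr9:44169467-44170142, with scores of 15.3, 12.9 and 12.2 in the 3 TGFB1 libraries. The next was chr10:68648517-68649141, with scores of 11.7, 10.8 and 12.2. The third was chr8:109241954-109242590, with scores of 10.1, 10.3 and 18.03. All 3 had peaks in every TGFB1 library of the other conditions and in at least 2 of 3 vehicle libraries of each. Of the 6 vehicle libraries that the rule did not use, the first and second regions had a peak in all and the third lacked one in 1 non-irradiated library. Among the 10 strongest gained regions 5 had a peak in all 12 libraries of the other conditions, against 42.5% of all regions. The share was 40.0% of the 15 gained regions at percentile 50 or more in all 3 TGFB1 lists. It was 12.9% of the lower-ranked 225 of the 454.

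Of the other 5 among the 10 strongest gained regions, those described next differed most between treatments in the other conditions. The region chr4:134531127-134531745 had scores of 7.72, 10.9 and 12.4 in the irradiated D7 TGFB1 libraries. It had no peak in any vehicle library of any condition, and peaks in all 3 D11 TGFB1 libraries and in 2 of the 3 non-irradiated ones. The region chr3:30937469-30938146 had scores of 8.15, 12.3 and 7.94. In non-irradiated organoids it was again gained, with peaks in 3 of 3 TGFB1 libraries and 0 of 3 vehicle libraries, whereas at D11 all 6 libraries had it. The region chr11:70403081-70403718 went the other way, with scores of 7.32, 8.94 and 10.2 at irradiated D7. At D11 it was lost, with peaks in 3 of 3 vehicle libraries and 0 of 3 TGFB1 libraries, and in non-irradiated organoids 2 of 3 libraries of each group had it.

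The strongest lost region was chr17:18111703-18112359, with scores of 11.1, 19.9 and 21.3 in the 3 vehicle libraries. It was followed by chr2:173057528-173058167 with scores of 14.5, 12.7 and 12.2. Both had peaks in all 12 libraries of the other conditions, as did 7 of the 10 strongest lost regions, against 42.5% of all regions. This share moved with peak strength, since it was 51.4% of the 35 lost regions at percentile 50 or more in all 3 vehicle lists and 16.0% of the lower-ranked 369 of the 741. Another lost region, chr4:101116076-101116741, had scores of 10.5, 12.3 and 9.49 and was found in all libraries of the other conditions except 1 non-irradiated TGFB1 library.

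Few regions followed treatment through all 3 conditions. A single region, chr4:97775100-97776191, had a peak in all 9 TGFB1 libraries and in none of the 9 vehicle libraries. Its scores in the irradiated D7 TGFB1 libraries were 5.53, 11.5 and 3.94. In the reverse direction, chr10:119435535-119436204 had vehicle scores of 6.32, 5.66 and 5.36 at irradiated D7, and chr7:86982050-86982715 had 4.96, 3.92 and 10.0. Both had a peak in all 9 vehicle libraries and in no TGFB1 library.

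The changed regions were spread over the genome as separate sites. The nearest peak of any library of the other group lay a median of 12.1 kb from a gained region and 11.6 kb from a lost region. It lay within 1 kb for 39 gained (8.59%) and 55 lost regions (7.42%), where a peak shifted to the side could not be told from a new one. It lay more than 100 kb away for 29 gained (6.39%) and 48 lost regions (6.48%). The nearest region open in all 6 libraries was a median of 30.5 kb from a gained and 31.0 kb from a lost region, against 30.9 kb over the 24835 regions not present in all 6. Within 10 kb of such a region lay 19.2% of gained and 23.6% of lost regions, against 22.6% of those 24835. The changed regions therefore lay about as far from constantly open sites as other variable regions did.

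Peak positions within a region were nearly as tight as elsewhere. The centres of the 3 peaks of a gained region spanned a median of 81 bp, and those of a lost region 68 bp. In regions present in all 6 libraries, they spanned 65 bp over the TGFB1 libraries and 57 bp over the vehicle libraries. The merged gained regions were a median of 684 bp wide and the lost ones 671 bp, and each deposited peak was a window of 601 bp.

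Some changed regions had a changed neighbour. With gaps of up to 50 kb, 46 gained regions (10.1%) stood in 23 runs of 2, and 69 lost regions (9.31%) stood in 33 runs, 3 of which held 3 regions. The runs of 3 lost regions were chr4:151573565-151604994, chr9:75169664-75232898 and chr14:26224559-26309474. None of the 3 runs held a gained region. Where a changed region had another within 50 kb, the nearest one was of the same direction for 44 of 59 gained (74.6%) and 69 of 82 lost regions (84.1%). Gained regions made up 38.0% and lost regions 62.0% of all changed regions.

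The balance of the 2 directions varied between chromosomes on the full lists. Chromosome 6 had 23 gained and 60 lost regions, the highest ratio of lost to gained regions (2.61). Chromosome 19 had 24 gained and 13 lost regions, a ratio of 0.542, and chromosome 11 had 38 and 36. These 2 were the chromosomes with more gained than lost regions, while chromosome 15 had 15 of each. As shares of the regions tested on a chromosome, gained regions ran from 0.881% (chromosome 8) to 2.10% (chromosome 19). Lost regions ran from 1.05% (chromosome 15) to 2.85% (chromosome 6). With lists of equal length, an alternative chosen after seeing the data, 7 chromosomes had more gained than lost regions, 9 had fewer and 3 had as many. Chromosome 6 then had 26 gained and 39 lost regions, chromosome 11 had 47 and 21 and chromosome 19 had 27 and 11. No test was made between chromosomes.

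**Figure D3:**
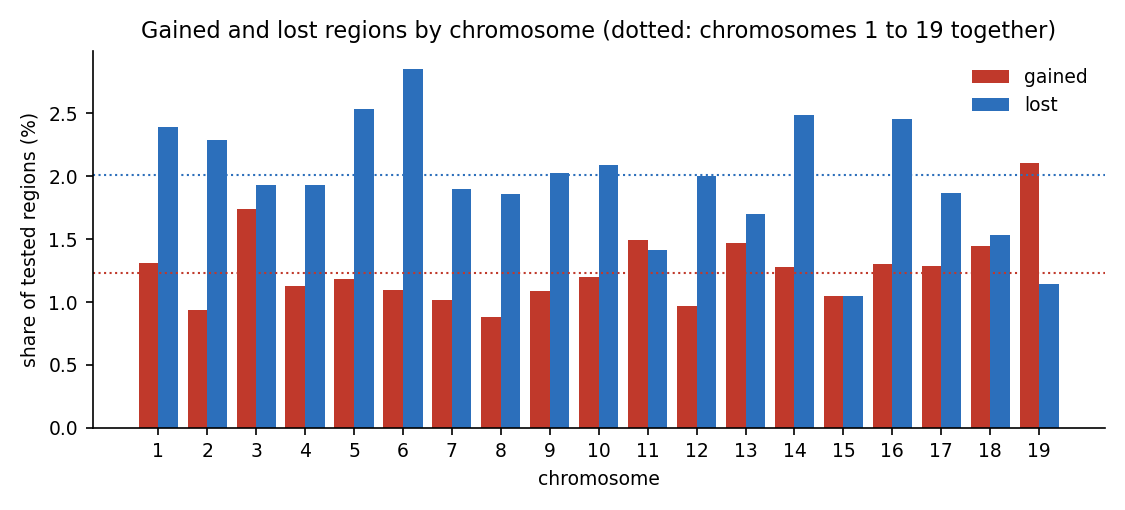
Gained (red) and lost (blue) regions as a percentage of the regions tested on each chromosome, with dotted lines at the shares over chromosomes 1 to 19 (1.23% and 2.01%). On these full lists gained regions exceed lost ones on chromosomes 11 and 19.

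The libraries of the other conditions, which the rule did not use, show whether the changed regions followed TGFB1 there. In non-irradiated D7 organoids, the gained regions had a peak more often with TGFB1. They were found at 45.8, 45.6 and 48.5% in the 3 vehicle libraries and at 87.4, 70.3 and 66.7% in the 3 TGFB1 libraries. Each TGFB1 library lay above each vehicle library. The difference was 28.2 points (exact permutation p = 0.1, two-sided, the smallest value that 3 against 3 can give, and 0.4 adjusted over the 4 tests of this kind). All 36785 regions were found at 65.2, 64.3 and 67.5% with vehicle and 78.3, 68.3 and 65.4% with TGFB1, a difference of 4.98 points. The 2626 regions that 3 of the 6 irradiated D7 libraries held in a mixed way, 1 or 2 of each group, differed by 7.16 points.

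List length differed between these libraries. The non-irradiated lists held 27158, 27238 and 28308 peaks with vehicle and 38299, 29740 and 27451 with TGFB1, and the TGFB1 library with the highest share was the one with 38299. The same 454 regions were therefore looked up in non-irradiated lists cut to 19907 peaks, an alternative chosen after seeing the data. They were found at 24.7, 22.9 and 22.7% with vehicle and at 40.5, 35.9 and 36.8% with TGFB1, a difference of 14.3 points (exact permutation p = 0.1) without overlap. The mixed regions differed by 0.22 points in these lists. When the regions were also chosen anew from irradiated D7 lists of that length (566 gained), the difference was 11.6 points (exact permutation p = 0.1), again without overlap.

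The lost regions differed less than the gained regions in the non-irradiated organoids on the full lists. At equal length the same lost regions again differed less (−12.4 against 14.3 points), while those chosen anew differed more (−14.3 against 11.6 points). On the full lists the lost regions were found at 73.3, 73.4 and 77.7% with vehicle and at 80.2, 65.2 and 61.7% with TGFB1. The groups overlapped. The difference of −5.80 points had an exact permutation p of 0.4 (adjusted 0.533). The same 741 regions in lists of equal length were found at 46.8, 46.3 and 48.0% with vehicle and at 33.6, 33.7 and 36.7% with TGFB1. That difference was −12.4 points (exact permutation p = 0.1), and the groups did not overlap. For the 546 regions lost on equal lists it was −14.3 points (exact permutation p = 0.1).

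At D11, days after the end of the TGFB1 treatment, the 2 kinds of region stood differently on the full lists. The gained regions were found at 82.4, 88.5 and 65.2% with vehicle and at 79.1, 81.3 and 74.2% with TGFB1, a difference of −0.51 points (exact permutation p = 0.9, adjusted 0.9). The groups overlapped and the lowest share was that of a vehicle library. The lost regions were found at 92.8, 94.1 and 75.7% with vehicle and at 70.3, 79.2 and 50.7% with TGFB1, a difference of −20.8 points (exact permutation p = 0.2, adjusted 0.4). The regions with a mixed pattern lay between them, at a difference of −16.2 points, and all regions differed by −9.39 points.

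The D11 lists also differed in length, with 40513, 48078 and 29956 peaks for vehicle and 31982, 37184 and 28523 for TGFB1. In D11 lists of equal length the same gained regions were found at 33.0, 30.2 and 30.8% with vehicle and at 46.3, 40.7 and 49.3% with TGFB1. This difference of 14.1 points (exact permutation p = 0.1) was opposite in sign to that on the full lists, and the groups did not overlap. The same lost regions were found at 44.4, 41.0 and 42.8% with vehicle and at 36.2, 41.4 and 34.1% with TGFB1. Their difference was −5.49 points (exact permutation p = 0.2) and the groups overlapped, while the mixed regions differed by −3.20 points. For the regions chosen anew on equal lists, the differences at D11 were 7.18 (gained, exact permutation p = 0.2) and −9.22 points (lost, exact permutation p = 0.1). At equal list length, then, the gained regions had higher mean shares with TGFB1 and the lost regions lower ones in both other conditions. Of the 4 comparisons of the same regions 3 were free of overlap. At D11 so were the mixed regions and all regions, which differed by −3.20 and −1.60 points (exact permutation p = 0.1 each).

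**Figure D4:**
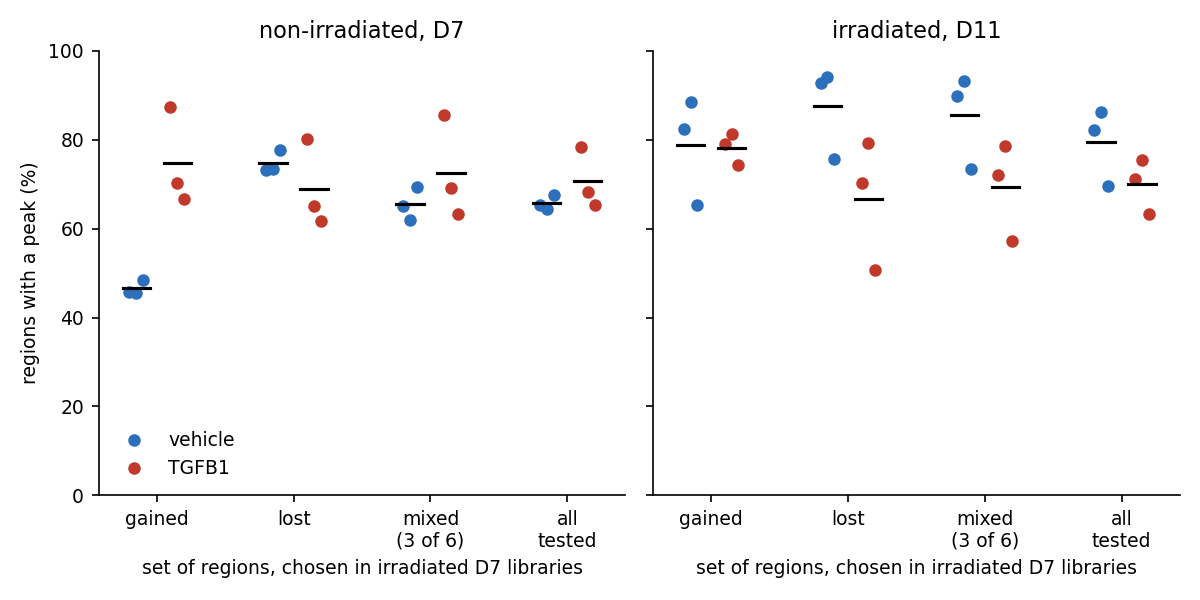
Percentage of the gained, lost, mixed (peaks in 3 of the 6 irradiated D7 libraries, 1 or 2 of each group) and all tested regions that have a peak in each library of the non-irradiated D7 (left) and D11 (right) organoids. Points are libraries on the full lists, bars are means of 3, and in the left panel the gained regions of the 3 vehicle libraries sit at 45.6 to 48.5%, below the 66.7 to 87.4% of the TGFB1 libraries.

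Region by region, the strict pattern was seldom met again. The mixed regions, which also have a peak in 3 of the 6 irradiated D7 libraries, are the closer reference for these shares. Of the 454 gained regions 41 (9.03%) were also gained in the non-irradiated organoids, against 2.44% of the mixed regions and 1.62% of all regions, and none was lost there. More TGFB1 than vehicle libraries had a peak in 250 gained regions (55.1%), against 34.6% of the mixed regions. Of the 741 lost regions 12 (1.62%) were lost again in the non-irradiated organoids, against 0.457% of the mixed regions. Another 5 (0.675%) were gained there, against 2.44% of the mixed regions. More vehicle than TGFB1 libraries had a peak in 231 lost regions (31.2%), against 22.1% of the mixed regions.

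At D11 the strict pattern was met again by 17 gained regions (3.74%), against 0.343% of the mixed regions. Another 14 gained regions (3.08%) were lost there, against 4.68% of the mixed regions. More TGFB1 than vehicle libraries had a peak in 100 gained regions (22.0%), against 11.3% of the mixed regions, and the reverse held for 114 (25.1%), against 40.4%. Of the lost regions 36 (4.86%) were lost again at D11 and 1 was gained. This share was near that of the mixed regions (4.68%). More vehicle than TGFB1 libraries had a peak in 343 lost regions (46.3%), against 40.4% of the mixed regions.

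A peak was found in none of the 12 other libraries for 3 gained (0.661%) and 4 lost regions (0.540%), near the 0.914% of the mixed regions and below the 5.60% of all regions. In all 12 it was found for 74 gained (16.3%) and 161 lost regions (21.7%), against 17.0% of the mixed and 42.5% of all regions. The gained regions that were strict in both D7 conditions and ranked highest were chr3:30937469-30938146, described above, chr2:132771518-132772178 and chr1:159563534-159564221. The second of these had scores of 7.27, 10.9 and 9.16 and the third 11.6, 7.78 and 7.59 in the irradiated D7 TGFB1 libraries. All 3 had peaks in all 6 libraries at D11, vehicle included. Among the lost regions, chr3:157529113-157529777 was lost in both D7 conditions, with vehicle scores of 7.74, 9.37 and 5.86 at irradiated D7, and all 3 D11 TGFB1 libraries had it.

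Regions gained again at D11 have, by the rule, no peak in the irradiated vehicle libraries of D7 and D11. The non-irradiated vehicle libraries all lacked a peak in 31.3% of the 454 gained regions, against 12.7% of the mixed regions and 22.1% of all regions. Of the 17 regions gained again at D11, the 5 highest ranked had none there either. Besides chr4:134531127-134531745, described above, they included chr2:128370119-128370856 with scores of 10.9, 7.41 and 6.52, and chr1:21489735-21490355 with 5.80, 8.36 and 6.51. The second of these reached scores of 27.2, 30.5 and 22.7 in the D11 TGFB1 libraries. Of the regions lost again at D11, chr5:11616541-11617523 ranked first with vehicle scores of 8.48, 9.90 and 8.64, and all 6 non-irradiated libraries had it.

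The RNA of the same 2 groups shows which DNA-binding factors and TGFB pathway genes differed at the time of these peaks. Values are FPKM, and changes are on the scale of log2(FPKM + 1), tested with limma and Benjamini-Hochberg adjustment over 11258 genes. Of these genes 4031 (35.8%) were higher with TGFB1 and 4464 (39.7%) lower, with a median of −0.03, so a call alone is common here. In bulk samples, fewer cells of a type and less RNA per cell cannot be told apart.

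The genes of the TGFB pathway moved mostly upward. Of the 30 listed, 24 were tested, 20 were higher, 1 lower and 3 not called, with a median of 1.57. The ligand Tgfb1 itself had 3.58, 2.90 and 3.81 FPKM with vehicle and 33.4, 33.0 and 34.2 with TGFB1, a change of 2.97 ± 0.07 (SE, adjusted p = 2.8e-10). The receptor Tgfbr2 rose by 0.59, while Tgfbr1 changed by 0.13 (adjusted p = 0.0558). Of the SMAD proteins that carry the signal, Smad3 rose by 0.64. Smad4, the shared partner, had 37.6, 37.7 and 37.4 FPKM with vehicle and 38.9, 39.5 and 37.9 with TGFB1, a change of 0.05 ± 0.04 that was not called (adjusted p = 0.289). Smad2 changed by 0.14 (adjusted p = 0.0585).

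All 8 tested inhibitors of the pathway were higher, with a median of 1.62. Pmepa1, which keeps SMAD proteins from the receptor, had 8.78, 9.05 and 9.58 FPKM with vehicle and 215, 223 and 229 with TGFB1, a change of 4.46 ± 0.04 (adjusted p = 1.8e-12). Smad7, the inhibitory SMAD, rose by 2.11 and Skil, a SMAD corepressor, by 2.46. Of the 10 tested targets 9 were higher and Tgfbi lower, by −0.36. Lama3, a laminin chain of the basement membrane, had 0.31, 0.27 and 0.41 FPKM with vehicle and 35.6, 35.5 and 41.9 with TGFB1 (4.86 ± 0.08, adjusted p = 1.7e-11). Thbs1, a matrix protein that can activate latent TGFB, had 2.79, 3.03 and 2.73 against 65.4, 64.3 and 74.4 FPKM (4.16 ± 0.06, adjusted p = 1.5e-11). The groups did not overlap in any of the 24 tested genes of the pathway list, the 3 uncalled ones included. Lack of overlap thus does not set the called genes apart, and its share over all genes is not given here.

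The FOS and JUN proteins of AP-1 bind as dimers and open chromatin in many cell types. The AP-1 list also held Batf, Batf3, Atf3, Maff and Mafk, and all of its tested genes were higher. This held for 9 of 9 tested genes, with a median of 1.49. Fos had 11.3, 10.9 and 10.2 FPKM with vehicle and 80.4, 78.8 and 97.1 with TGFB1 (2.87 ± 0.08, adjusted p = 1.0e-09). Fosl1 had 1.84, 2.34 and 3.52 against 20.4, 20.1 and 23.3 FPKM (2.67 ± 0.16, adjusted p = 2.0e-06). Jun had 22.7, 20.8 and 23.4 against 127, 128 and 132 FPKM (2.48 ± 0.05, adjusted p = 3.6e-11). The smallest change in the list was that of Mafk, 0.73. Fosb, Batf and Batf3 had a mean under 1 FPKM and were not tested.

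Of the TEAD factors and their partners, which act at the end of the Hippo pathway, 6 of 8 were higher, 1 lower and 1 not called. Vgll3, a TEAD cofactor, had 0.28, 0.17 and 0.29 FPKM with vehicle and 4.27, 4.75 and 4.81 with TGFB1 (2.17 ± 0.09, adjusted p = 5.0e-09). Tead4 had 1.33, 1.30 and 1.42 against 7.34, 7.15 and 7.94 FPKM (1.85 ± 0.07, adjusted p = 3.5e-09). Wwtr1, which encodes the coactivator TAZ, had 1.27, 1.28 and 1.26 against 5.90, 6.11 and 6.83 FPKM (1.68 ± 0.07, adjusted p = 1.0e-08). Vgll4, which competes with YAP for TEAD, fell by 0.64. Tead3 had 21.3, 21.0 and 21.6 against 20.8, 21.4 and 21.0 FPKM (−0.01 ± 0.04, adjusted p = 0.771), and its groups overlapped. Yap1 was called at 0.13 (adjusted p = 0.0401), a call that was lost when any of vehicle replicate 2, vehicle replicate 3 or TGFB1 replicate 3 was left out (adjusted p 0.103 to 0.128). All 13 tested genes of the YAP target list were higher, with a median of 1.43.

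The factors of intestinal identity were split. Of 26 tested, 10 were higher, 12 lower and 4 not called, with a median of −0.08. This was near the split of all tested genes, of which 35.8% were higher and 39.7% lower, with a median of −0.03. Foxa1, a pioneer factor, had 26.6, 26.9 and 27.9 FPKM with vehicle and 80.0, 74.8 and 78.4 with TGFB1 (1.49 ± 0.04, adjusted p = 4.8e-10). Prdm1, a repressor of the fetal and neonatal gut, had 0.66, 0.61 and 0.66 against 2.46, 2.24 and 2.32 FPKM (1.02 ± 0.08, adjusted p = 9.1e-07). Neurog3, which commits cells to the enteroendocrine lineage, had 11.8, 12.1 and 12.0 against 6.39, 5.07 and 4.76 FPKM (−1.03 ± 0.09, adjusted p = 1.4e-06). The intestinal master factors Cdx1 and Cdx2 fell by 0.54 and 0.37, and Hnf4a and Hnf4g by 0.26 and 0.37. These 4 changes were small beside those of the AP-1 list. The groups did not overlap in any of the 4, nor did they in Ascl2 of the same list, which was not called (adjusted p = 0.112). Esrra had 81.4, 81.8 and 80.9 against 82.3, 79.0 and 79.1 FPKM and was not called (−0.02 ± 0.03, adjusted p = 0.566).

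Among 22 other tested factors 13 were higher, 5 lower and 4 not called, with a median of 0.79. Elk3, an ETS factor, had 0.96, 0.72 and 0.86 FPKM with vehicle and 19.8, 18.9 and 21.5 with TGFB1 (3.51 ± 0.07, adjusted p = 7.9e-11). Runx1 had 3.16, 2.44 and 3.06 against 20.9, 19.1 and 20.8 FPKM (2.46 ± 0.08, adjusted p = 1.1e-09). Ets1 had 0.72, 0.92 and 0.74 against 6.40, 6.20 and 7.38 FPKM (2.09 ± 0.09, adjusted p = 6.3e-09). Tcf7l2, which acts with beta-catenin in Wnt signalling, had 15.7, 14.5 and 14.6 against 16.0, 13.7 and 14.8 FPKM (−0.01 ± 0.06, adjusted p = 0.867). Zeb1, Zeb2, Snai1 and Snai2, factors of the epithelial to mesenchymal transition, were among the 9 of 31 under a mean of 1 FPKM.

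**Figure D5:**
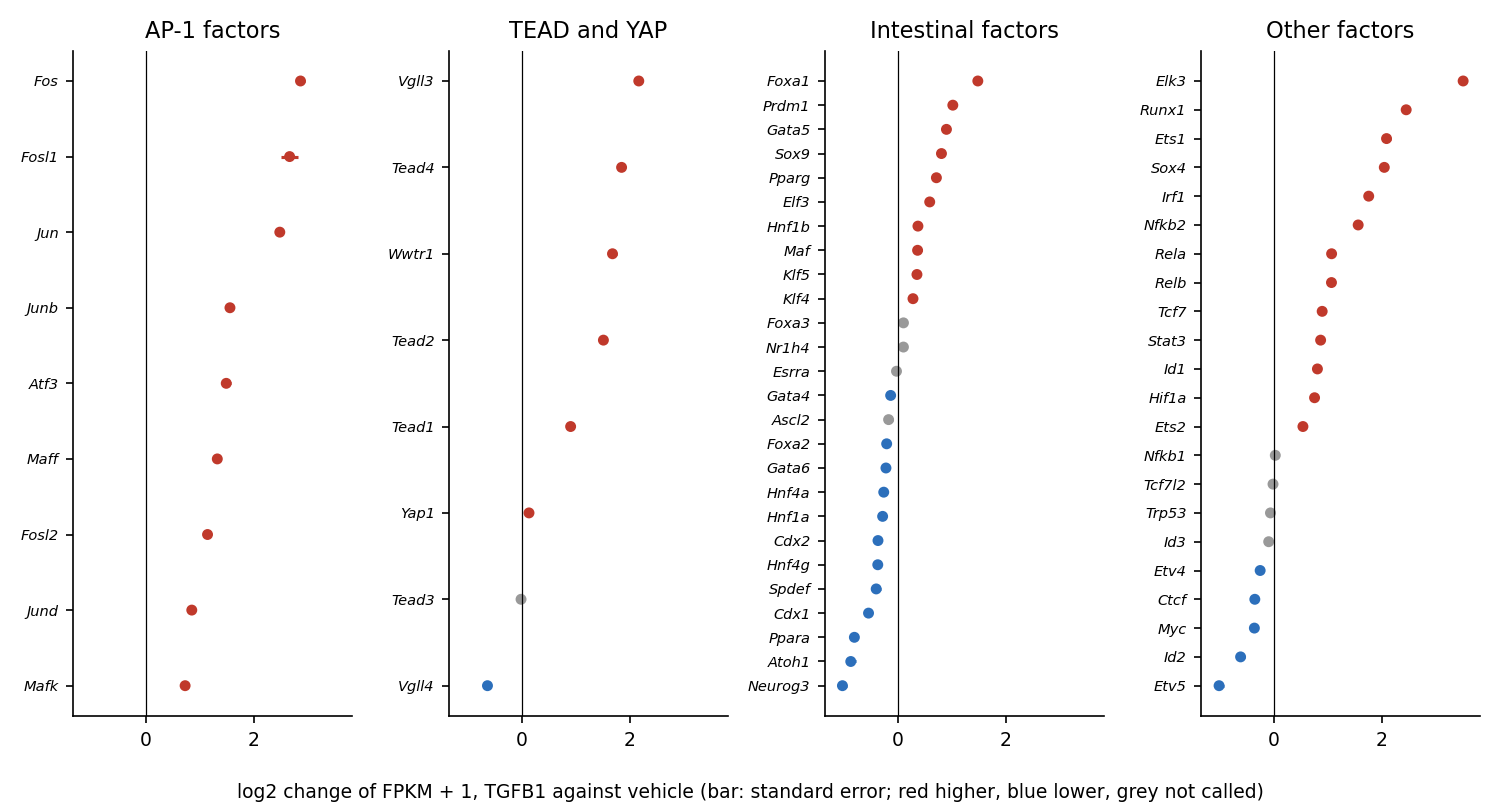
Change in log2(FPKM + 1), TGFB1 against vehicle, of the tested genes in the 4 factor lists in irradiated D7 organoids, with standard errors as bars (n = 3 each). Red genes were called higher, blue lower and grey were not called. All 9 tested genes of the AP-1 list lie above 0. The 26 intestinal factors are split between 10 higher and 12 lower, near the 35.8% and 39.7% of all tested genes.

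The genes of chromatin enzymes and complexes were split. Of 19 tested, 4 were higher, 7 lower and 8 not called, with a median of −0.08. The largest was the fall of Dnmt1, the maintenance DNA methyltransferase active in dividing cells, by 1.52. Suz12, Ezh2 and Eed, the core of the Polycomb repressive complex that methylates histone H3, fell by 0.71, 0.38 and 0.38. Regenerative genes, known from repairing or fetal-like gut epithelium, were higher in 20 of 22 tested, with a median of 1.74. Clu, a marker of revival stem cells, rose by 4.37 and Anxa8 by 4.82, while Il33 (0.22) and Ly6c1 (−0.07) were not called.

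Markers of cell types moved beside these changes. The labelled tissue was borne out by its epithelial markers, whose summed level was 3302 to 3388 FPKM with vehicle and 8366 to 9165 with TGFB1, with 5 of 6 higher and Cdx2 lower. All 7 proliferation markers were lower, and their sum went from 356 to 370 FPKM down to 143 to 161. Stem cell markers summed to 976 to 1013 FPKM with vehicle and 420 to 507 with TGFB1. Most of this sum was Olfm4, with 655 to 685 FPKM with vehicle and 211 to 269 with TGFB1. Of the 7 stem cell markers 4 were lower, Rnf43 was higher, and Ascl2 and Slc12a2 were not called. The 6 Paneth and the 8 enteroendocrine markers were all higher, and of the 7 goblet markers 6 were lower. The 10 enterocyte markers were divided, with 4 higher, 5 lower and 1 not called. Their sum was 12694 to 13480 FPKM with vehicle and 18302 to 19193 with TGFB1. Of the 4 tuft markers 3 were higher and 1 lower. Markers of cells that an epithelial culture should lack were low in both groups, but some were higher with TGFB1. The 6 immune markers summed to 5.68 to 7.29 FPKM with vehicle and 12.5 to 13.5 with TGFB1, with Cd3e at 0 in all 6 libraries and Ptprc at most at 0.07. Both immune markers that were tested were called higher, Lyz2 by 1.36 and Cd68 by 0.40. Of the mesenchymal markers Acta2 was called higher, by 1.56, and Vim was not called. The 7 mesenchymal markers summed to 4.46 to 5.53 and 7.23 to 10.1 FPKM, mostly Vim and Acta2, and the 3 endothelial markers to at most 0.23. The part of a shift between epithelial cell types in the gained and lost regions was not tested.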

How the data were processed

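ATAC-seq peaks were deposited by the authors as 1 list per library, each with a −log10 q score. Per the file names they were made with Picard, MACS2 at a q-value of 0.05 and subtraction of a blacklist. RNA was deposited as FPKM in 1 table per condition, and TopHat2 2.1.0 and Cuffnorm 2.2.1 are in the submitters' processing notes, which name no file for them. The lists and the table give no read counts, so the sequencing depth is unknown.

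The build is not stated for the peaks. The notes name mm9, GRCm39 and mm39. The peaks on chromosome 7 reach position 152519677, past the last GRCm38 gene (145324059), and of the regions in all 6 lists on the chromosomes that the table of GRCm38 starts covers (11572 regions) 8.14% lay within 1 kb of a GRCm38 start, against 5.43% after a shift of 100 kb. The coordinates were read as mm9, for which no genome or annotation was used here, so links to genes, the RNA of neighbouring genes, motifs and sequences were not analysed here.

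Peaks were merged with bedtools 2.31.1 where they overlapped by at least 1 bp. Shares were compared by exact permutation, two-sided. RNA was tested with limma 3.58.1 (R 4.3.3, trend and robust) on log2(FPKM + 1), leaving out genes whose mean over the 6 libraries was under 1 FPKM, and older symbols were matched (Ccn2 as Ctgf, Ccn1 as Cyr61). The scripts were tested on simulated data. Regions named are the 10 of each direction with the highest lowest percentile, and those that met the rule again in other conditions. Genes named with values are the 3 largest called changes and the largest adjusted p among those not called in each list; other genes were chosen after their values were seen. The members and lists were chosen with earlier results of these data known. Alternatives tried were other peak thresholds, overlaps, list lengths, call rules, chromosomes, pseudocounts, filters, normalization, replicate blocks and leaving out each library.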

Additional observations from a re-analysis of the deposited data

Results flagged for a closer look

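For the gained regions, the difference in share between TGFB1 and vehicle libraries was 28.2 points in non-irradiated D7 organoids and −0.51 points at D11. The difference between these 2 was 28.7 points, with an exact permutation p of 0.045 over 400 arrangements within the conditions (two-sided, adjusted 0.09 over gained and lost regions). With the share of all tested regions in the same library subtracted it was 14.3 points (exact permutation p = 0.205), and with lists of equal length 4.42 points (exact permutation p = 0.555). With the same 454 regions looked up in lists of equal length it was 0.22 points (exact permutation p = 0.995). These 3 alternatives were chosen after seeing the data. A p under 0.05 was thus reached by the uncorrected shares alone. For the lost regions the same quantity was 15.0 points (exact permutation p = 0.34), and under the same 3 alternatives 0.61, −5.13 and −6.88 points (exact permutation p = 0.955, 0.56 and 0.3).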

How the results depend on the processing

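The number of gained regions was 454. Peaks in 2 or 3 of 3 against 0 of 3 gave 1608 gained and 2313 lost regions, and 3 of 3 against 0 or 1 of 3 gave 1099 gained and 1965 lost regions. Leaving out 1 library gave 575 to 1005 gained regions and 929 to 1589 lost regions, since fewer libraries must meet the rule. A score of at least 5 gave 369 and 536, merging at 300 bp 483 and 763, merging all 18 lists 450 and 740, and all sequence names 461 and 757. The difference for gained regions seen in D11 libraries (−0.51 points) reversed to 7.18 with the same number of peaks per library and to 8.87 with the share minus that of all tested regions, and to 14.1 for the same regions in lists of equal length, both of the latter chosen after seeing the data. Leaving out 1 library gave −7.27 to 4.41, with a positive sign without vehicle replicate 1, vehicle replicate 2 or TGFB1 replicate 3. Leaving out 1 library gave 21.9 to 32.2 points for gained regions in non-irradiated libraries, −11.4 to −2.14 for lost regions there, −27.0 to −12.8 for lost regions at D11, −3934 to −203 for peaks per library and 8100 to 8265 genes called in RNA. Share minus that of all tested regions gave 23.2, −10.8 and −11.4 points for the first 3 of these (exact permutation p = 0.1 each). Same-numbered libraries deviated together weakly at most (r = 0.024, 0.013 and 0.0047 in ATAC-seq, 0.07, 0.21 and 0.02 in RNA). The same-numbered TGFB1 library still had the highest r for each vehicle library in ATAC-seq, and for vehicle replicates 1 and 2 in RNA. The numbers were not taken as pairs in the main tests. With a replicate block the exact p was 0.75 for peaks per library, 0.25 and 0.5 for gained and lost regions in non-irradiated libraries and 1 and 0.25 at D11 (3 pairs cannot go below 0.25), and 8417 genes were called against 8495. Every gene above 0 FPKM in at least 1 library gave 9405 calls, quantile normalization 8582 and a pseudocount of 0.1 gave 8462. Leaving out 1 library, the uncalled change of Nfkb1 ran from −0.016 to 0.062 and that of Tcf7l2 from −0.063 to 0.040. Quantile normalization added calls for Esrra (−0.10), Smad2 (0.15), Tgfbr1 (0.16) and Trp53 (−0.15). Yap1 also lost its call under a replicate block (adjusted p = 0.0519) and without the filter (0.0733). Other distances and peak sets for genes beside the regions were not run. The unknown read depth leaves the size of each change in accessibility unmeasured.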
